A study of Mus musculus with 4 samples.

Results

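The genes described here encode the proteins of the cytosolic ribosome. They are the 82 rows, of 35976 gene rows in the deposited table of read counts, whose symbol is that of a cytosolic ribosomal protein gene (Rpl or Rps, a number and at most one of the letters a, x or l, together with Rpsa, Rplp0, Rplp1 and Rplp2). Of these, 50 belong to the large subunit and 32 to the small subunit. The libraries came from mouse E14 embryonic stem cells, which stem from the blastocyst, and the strain was given as 12910la. The cells were labelled wild type in the 2 control libraries and knocked down in the 2 libraries treated with short hairpin RNA whose target is labelled Lx8-SINE B2 (SINE B2 is a family of short interspersed repeats). All cells grew on gelatin with 15% serum and the cytokine LIF at 10 ng/ml. Per the labels' protocols, which are the same for all samples, a pSuper puro vector was transfected, and 24 h later selection began, for 3 days, with 1 µg/ml puromycin. What the control cells received, and whether separate cultures gave the libraries of each group, is not stated in the labels, so each p-value below measures the spread among these 4 libraries alone, and that spread may be technical. Only the knockdown titles carry the word batch, and such a batch, if there is one, cannot be told apart from the treatment. The level of the targeted RNA itself was not analysed here.

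The cytosolic ribosome translates every nuclear mRNA. Its small subunit binds the mRNA and reads the codons, and its large subunit joins the amino acids and holds the tunnel through which the new chain leaves. Each ribosome holds in general a single copy of each protein except for the acidic proteins of the stalk, so these genes are usually expressed together. Their mRNAs are short, very abundant in dividing cells and begin with a run of pyrimidines (the TOP sequence) through which mTOR signalling controls their translation. Almost every one of these genes has left processed pseudogenes, intronless copies elsewhere in the genome, which can share reads with it.

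The libraries held 16383323 to 19867689 counts. All 8 stem cell markers examined, among them Pou5f1 and Sox2, were above 1 CPM (CPM, the count over the TMM-scaled library size; TMM is a scaling that takes most genes as unchanged), with a summed level of 7330 and 7090 CPM in control 1 and 2 and 5150 and 5790 CPM in knockdown 1 and 2. The markers of this list differed mainly in the size of the change. Tdgf1 fell (log2 fold change -1.19, edgeR adjusted p = 0.0438) and Dppa5a was at -0.77 (edgeR adjusted p = 0.13). Utf1, Nanog, Pou5f1, Zfp42 and Sox2 were at -0.47, -0.265, -0.24, -0.12 and -0.07, and only Esrrb, at 0.13, was above 0. Of the 8 only Tdgf1 was called by edgeR. Of 8 fibroblast markers 2 were above 1 CPM, and Postn and Lum were at 0 in every library. The list summed to 15.5 and 16.7 CPM in control 1 and 2 and 5.76 and 8.21 CPM in knockdown 1 and 2. Most of this difference lay in Thy1, at 13.3 and 12.9 CPM in control 1 and 2 and 2.88 and 5.53 CPM in knockdown 1 and 2 (edgeR adjusted p = 0.0793). Col1a1 and Col1a2 had log2 fold changes of -0.35 and 0.92. Of 8 markers of early differentiation 5 were above 1 CPM, and they summed to 27.8 and 38.2 CPM in control 1 and 2 and 47.5 and 60.2 CPM in knockdown 1 and 2. Its members differed in direction, with T at a log2 fold change of -1.66 and Gata6 and Sox17 at 1.56 and 1.48, none of them called by edgeR. Krt8, at 11.6, 22.7, 10.3 and 38.8 CPM in the order above, was the highest of the list except in knockdown 1. In knockdown 1 Pax6, at 15.2 CPM, and Sox1, at 10.6 CPM, were above it. Short transcripts were lower in the knockdown libraries than long ones over the whole table. The median log2 fold change was -0.105 in the quartile of tested genes with the shortest transcripts, which holds 76 of the ribosomal protein genes (-0.0977 over its other genes), and 0.0989 in the quartile with the longest. The part of these shifts in the results below was not tested, except that for transcript length a corrected fit is given beside the medians.

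Ribosomal protein mRNAs took a smaller share of the knockdown libraries than of the controls. They made up 8.23% and 7.37% of all counts in control libraries 1 and 2, and 6.33% and 6.62% in knockdown libraries 1 and 2. Both knockdown libraries were below both controls. Read as TMM-scaled CPM, the controls summed to 79600 ± 9570 (SD, n = 2) and the knockdown libraries to 63800 ± 3100 (SD, n = 2), a log2 ratio of the means of -0.32. With 2 libraries in each group the smallest p that a two-sided exact permutation test of such a sum can give is 0.333, and none was run. These are shares of the sequenced mRNA: fewer cells of a type and less RNA per cell cannot be told apart in such libraries.

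Of the 82 genes 81 were tested with edgeR's quasi-likelihood test, and 1, Rpl39, passed a Benjamini-Hochberg adjusted p of 0.05 over all tested genes. Over all 16209 tested genes 0.555% were called lower and 0.876% higher. The untested gene, Rpl32l, had 0, 2, 0 and 1 counts in control 1, control 2, knockdown 1 and knockdown 2. In 54 of the 81 genes both knockdown libraries lay below both controls, against 24.6% of all tested genes, and in 1, Rps27, both lay above both controls, against 27.3%. In the other 26 the groups overlapped. The log2 fold change (knockdown over control) was below 0 in 78 of 81 genes, against 49.5% of all tested genes. Its median over the 81 genes was -0.32, beside 0.0057 over all tested genes, and the middle of the distribution was narrow, from -0.41 at the lower quartile to -0.20 at the upper. The median standard error of a gene was 0.20, so single genes with changes of this size were not distinguished from 0 at this depth of replication.

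How far these genes lay below the controls depended on the control library. Without control 1 the median was -0.17 and 62 genes, 76.5%, were below 0, against 49.3% of all genes tested in that fit. Without control 2 the median was -0.48 and 80 genes were below 0. After correction of each library for transcript length and GC content, the median of the ribosomal protein genes was -0.31 and that of all tested genes -0.05. Over the 72 genes at 300 CPM or more the median was -0.31, beside -0.06 over the 488 other tested genes at that level.

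**Figure D1:**
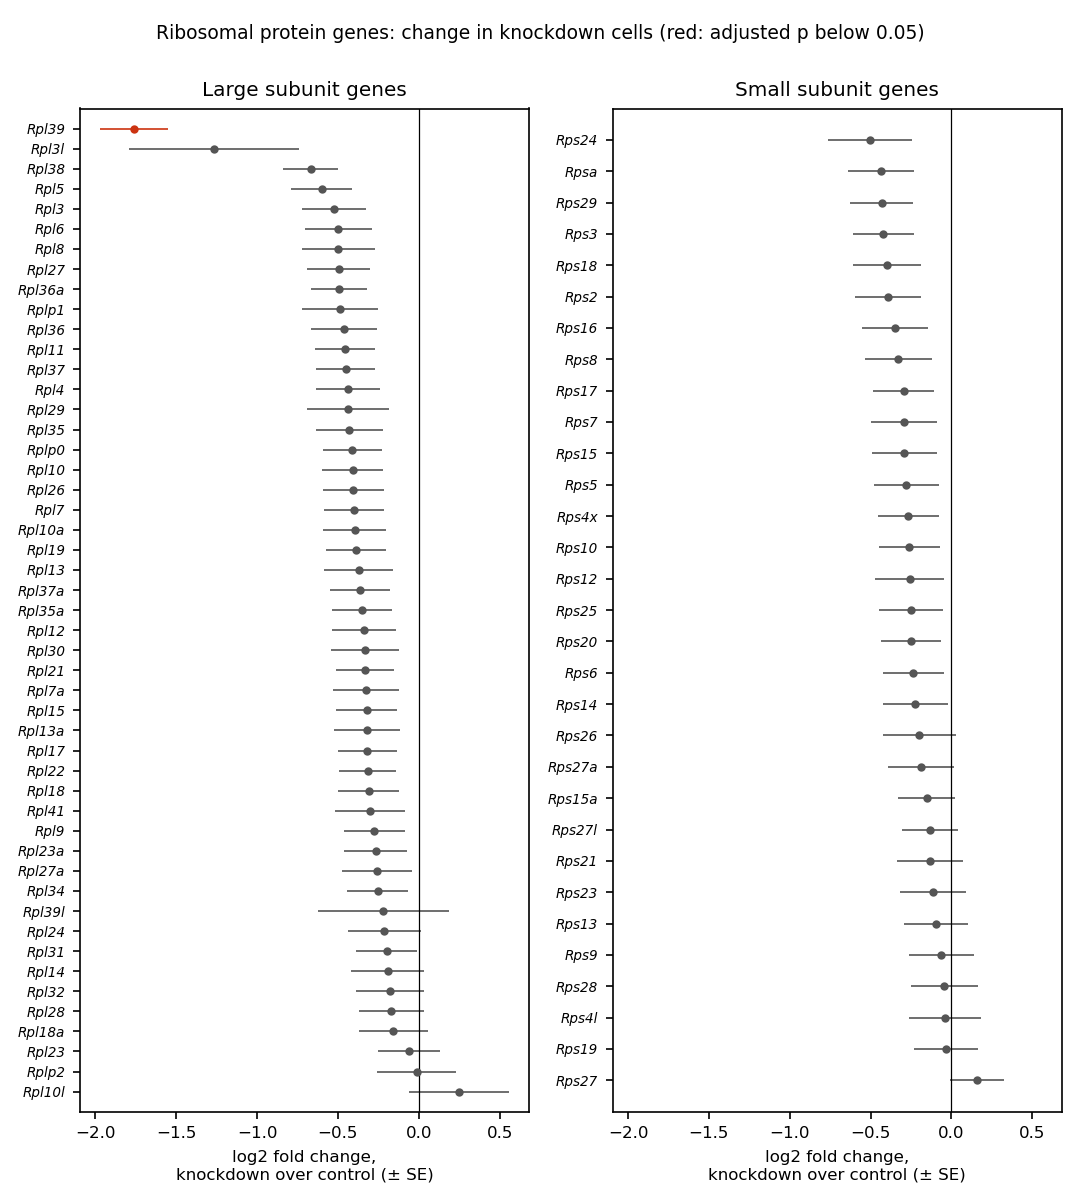
Log2 fold change of each tested ribosomal protein gene (x axis, knockdown over control, bars are 1 standard error), for large subunit genes on the left and small subunit genes on the right, ordered by size, with 1 small subunit gene not drawn. Rpl39, in red, is the only gene past an adjusted p of 0.05, and 78 points lie left of 0.

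Large subunit genes lay further below the controls than small subunit genes. The median log2 fold change was -0.35 over 49 large subunit genes and -0.25 over 32 small subunit genes. The groups were apart, with the knockdown libraries lower, in 36 of 49 large subunit genes and in 18 of 32 small subunit genes (24.6% of all tested genes). At an unadjusted p of 0.05, 10 large subunit genes were lower, namely Rpl39, Rpl3l, Rpl38, Rpl5, Rpl3, Rpl6, Rpl27, Rpl36a, Rpl11 and Rpl37, and 0 small subunit genes were. Over all tested genes 8.58% were lower at that level. For the small subunit edgeR's quasi-likelihood test called 0 genes, as did DESeq2, limma-voom and the likelihood ratio test. These other tests called more of the whole table, apart from limma-voom: 6.83% of all tested genes with DESeq2, 8.08% with the likelihood ratio test and 1.49% with limma-voom, and edgeR without a filter on low counts called 6.47% and without control 1 3.41%. Calls of members by them, given below, are to be read against these shares.

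Summed over the subunit, large subunit genes held 5.08% and 4.52% of the counts in control 1 and 2 and 3.76% and 3.99% in knockdown 1 and 2. Small subunit genes held 3.15% and 2.85% in control 1 and 2 and 2.57% and 2.63% in knockdown 1 and 2. The ratio of the large to the small subunit sum needs no scaling between libraries. It was 1.61 and 1.59 in control 1 and 2 and 1.47 and 1.52 in knockdown 1 and 2, a difference in log2 of -0.10 beside a between-library SD of 0.0163 in the controls and 0.0359 in the knockdown libraries. The ratio was lower in both knockdown libraries than in either control. It was also lower without the 5 most abundant members (Rpl4, Rpsa, Rps2, Rpl13a and Rpl3), where the difference was -0.12. Genes of a library are not replicates, so the subunits were compared by their medians and sums alone. Each subunit's own median moved with the control kept: the large subunit median was -0.25 without control 1 and -0.53 without control 2, and the small subunit median was -0.10 and -0.41. The difference between the subunit medians, -0.10 with all libraries, was -0.17 without knockdown 2 and -0.15 without control 1.

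**Figure D2:**
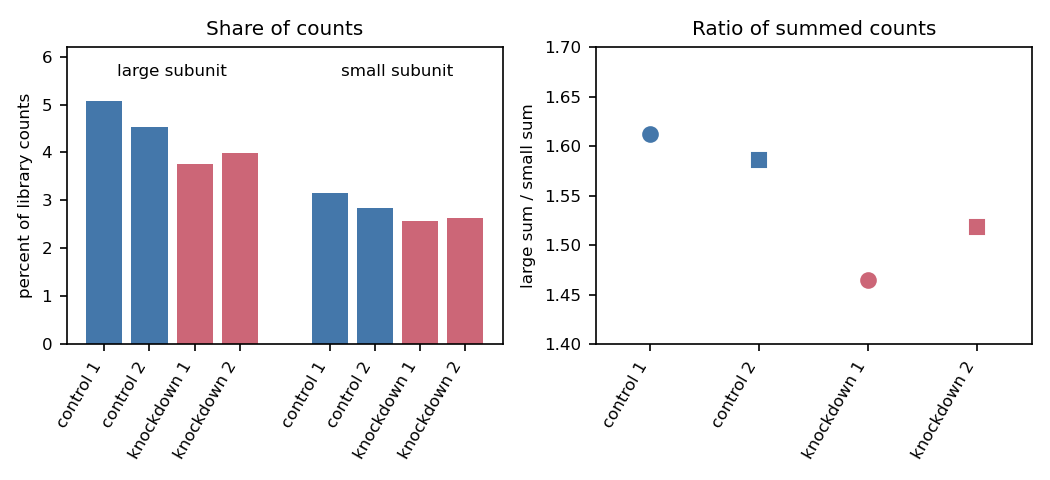
Left, percent of each library's counts (y axis) in large subunit genes and in small subunit genes, for 2 control libraries (blue) and 2 knockdown libraries (red). Right, the ratio of the large to the small subunit sum in the same libraries, which was 1.61 and 1.59 (control) and 1.47 and 1.52 (knockdown); its axis does not start at 0.

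Rpl39 encodes a very small protein that lines the exit tunnel of the large subunit, and was the only member called. The gene lies on the X chromosome from 37082518 to 37085222 (mm10, minus strand). Its level was 83.5 and 66.7 CPM in control 1 and 2 and 21.6 and 22.7 CPM in knockdown 1 and 2. The knockdown libraries were close to each other and far below both controls. It fell 3.39-fold (log2 fold change -1.76, standard error 0.21, edgeR adjusted p = 0.0155). It was called in each of the 16 other fits, and over the 4 that left out 1 library its log2 fold change ranged from -1.97 to -1.59. Rpl39 was among the weakest members, with 79.5 CPM per kilobase of transcript, where Rps12, the highest, had 2609. Of the windows of 100 bases of its transcript 1.75% occur in a transcript of another annotated gene, against a median of 38.3% over the 82 genes. A window was counted only where all its bases match, so reads shared with diverged copies were not assessed, here or for other genes.

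Rpl39l, a paralog of Rpl39 on chromosome 16 best known from the testis, was at 81.8 and 36.2 CPM in control 1 and 2 and 35.84 and 65.55 CPM in knockdown 1 and 2. The groups overlapped, and the log2 fold change was -0.22 (standard error 0.40, edgeR adjusted p = 0.81). The coding sequences are of equal length, 153 bases without the stop codon, and are identical at 85.0% of positions. Their first 60 coding bases are shown to let the called gene and its uncalled paralog be compared. Capitals mark the bases that differ between them, and the sequences are those of GENCODE M21 (GRCm38).
Rpl39: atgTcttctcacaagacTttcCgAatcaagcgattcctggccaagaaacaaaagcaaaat
Rpl39l: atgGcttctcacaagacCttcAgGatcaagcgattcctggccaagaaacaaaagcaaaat
The stretch differs at 4 positions and the whole coding sequence at 23. No window of 100 bases of the Rpl39l transcript occurs in another annotated gene.

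Of the other proteins at the wall of the exit tunnel, Rpl4 was the most abundant member of all in CPM. It was at 3537 and 3104 CPM in control 1 and 2 and 2400 and 2501 CPM in knockdown 1 and 2. The groups did not overlap, giving a log2 fold change of -0.44 (standard error 0.20, edgeR adjusted p = 0.276). Rpl17, the third tunnel protein examined, had a log2 fold change of -0.32. Around the tunnel's mouth, where chaperones and the signal recognition particle dock, the 5 genes Rpl19, Rpl23a, Rpl26, Rpl31 and Rpl35 had log2 fold changes from -0.43 to -0.20, and 4 of them had both knockdown libraries below both controls (24.6% of all tested genes). None of these 5 was called by edgeR, where 1.43% of all tested genes were, and 0 of them was at an unadjusted p under 0.05 or called by DESeq2, limma-voom or the likelihood ratio test.

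**Figure D3:**
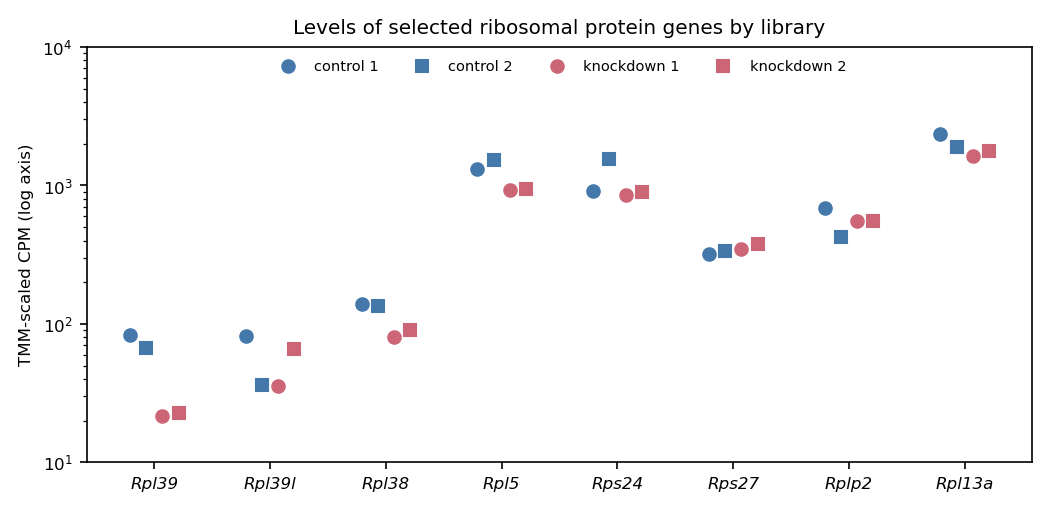
TMM-scaled CPM (y axis, log scale) of 8 ribosomal protein genes in control 1 and 2 (blue) and knockdown 1 and 2 (red). Rpl39 drops from 83.5 and 66.7 to 21.6 and 22.7 CPM while its paralog Rpl39l overlaps between groups, and Rps24 shows a high value in control 2 alone.

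Rpl38 followed Rpl39 in size among members above 5 CPM. It encodes a large subunit protein known for its part in the translation of a set of Hox mRNAs in the mouse embryo and lies on chromosome 11 from 114667818 to 114672333. Its level was 139 and 134 CPM in control 1 and 2 and 81.0 and 90.7 CPM in knockdown 1 and 2. The groups were apart by several times the spread within each. It did not pass (log2 fold change -0.67, standard error 0.17, edgeR adjusted p = 0.0908). It passed with DESeq2 (adjusted p = 0.023), with the edgeR likelihood ratio test (adjusted p = 0.0325) and without a filter on low counts (edgeR adjusted p = 0.0294).

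Rpl5 and Rpl11 join the large subunit together with 5S rRNA, and outside the ribosome this particle binds the p53 ligase MDM2. Rpl5, on chromosome 5 from 107900508 to 107909005, was at 1313 and 1533 CPM in control 1 and 2 and 929.5 and 946.9 CPM in knockdown 1 and 2. Both knockdown values lay below both controls (log2 fold change -0.60, standard error 0.19, edgeR adjusted p = 0.137). It passed with DESeq2 (adjusted p = 0.0295) and without a filter (edgeR adjusted p = 0.0411). The count of Rpl5 is uncertain, since 91.1% of its windows occur in other annotated genes, among them Fam69a, whose exons overlap it. Rpl11 was at 865 and 726 CPM in control 1 and 2 and 559 and 601 CPM in knockdown 1 and 2 (log2 fold change -0.46, standard error 0.19, edgeR adjusted p = 0.229).

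The other large subunit genes among the lowest were Rpl3, Rpl6, Rpl8 and Rpl27, with log2 fold changes of -0.52, -0.50, -0.50 and -0.50. Rpl3 encodes a protein near the peptidyl transferase centre. It was at 2258 and 1913 CPM in control 1 and 2 and 1491 and 1410 CPM in knockdown 1 and 2, with edgeR adjusted p = 0.196. Rpl6 was at 2288 and 1793 CPM in control 1 and 2 and 1440 and 1451 CPM in knockdown 1 and 2 (edgeR adjusted p = 0.234). Rpl27 was at 930.5 and 726.2 CPM against 595.1 and 579.6 CPM (edgeR adjusted p = 0.215), so that for all 3 the groups were apart but the test was not passed. Rpl8 differed between the controls, at 2406 and 1692 CPM, by more than control 2 differed from the knockdown libraries at 1506 and 1398 CPM. Rpl3l, the paralog of Rpl3 known from heart and skeletal muscle, was near the lower limit of measurement at 4.07 and 2.85 CPM in control 1 and 2 and 1.94 and 0.91 CPM in knockdown 1 and 2. Its log2 fold change was -1.27 (standard error 0.53, edgeR adjusted p = 0.236).

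The stalk, which calls elongation factors to the ribosome, is made of Rplp0 and of the acidic proteins Rplp1 and Rplp2. Rplp0 was at 1528 and 1403 CPM in control 1 and 2 and 1072 and 1133 CPM in knockdown 1 and 2 (log2 fold change -0.41, standard error 0.18, edgeR adjusted p = 0.27). Rplp1 was at 1645 and 1206 CPM against 878.5 and 1155 CPM, so that knockdown 2 came close to control 2 (log2 fold change -0.49, standard error 0.23, edgeR adjusted p = 0.298). Rplp2 was at 692.5 and 426.5 CPM in control 1 and 2 and 558 and 551 CPM in knockdown 1 and 2. Both knockdown values of Rplp2 lay between the controls, and its log2 fold change was -0.01.

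In the small subunit Rps24 had the lowest log2 fold change, -0.50 (standard error 0.26, edgeR adjusted p = 0.334). This rested on 1 library: Rps24 was at 916 CPM in control 1, 1552 CPM in control 2, and 851 and 891 CPM in knockdown 1 and 2. Control 1 was thus near the knockdown libraries. The log2 fold change of Rps24 was -0.84 without control 1 and -0.12 without control 2. Rpsa, the laminin receptor protein of the small subunit, was at 2901 and 2356 CPM in control 1 and 2 and 1884 and 1999 CPM in knockdown 1 and 2 (log2 fold change -0.44, edgeR adjusted p = 0.29). Rps2 and Rps3, which sit where the mRNA enters, had log2 fold changes of -0.39 and -0.42, with both knockdown libraries below both controls for each. Rps6, the protein that S6 kinase phosphorylates, was at 1902 and 1732 CPM against 1554 and 1531 CPM (log2 fold change -0.24, standard error 0.19, edgeR adjusted p = 0.53).

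The 12 genes of the small subunit head that were examined had log2 fold changes from -0.43 to -0.03 with a median of -0.27. In 9 of these both knockdown libraries were below both controls (24.6% of all tested genes). Rps29 was the lowest, and Rps19 and Rps28 were the highest. Rps19, the gene most often mutated in Diamond-Blackfan anaemia, was at 575 and 437 CPM in control 1 and 2 and 473 and 516 CPM in knockdown 1 and 2. The groups overlapped.

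Rps28 and Rpl23 were among the 8 members with the highest log2 fold changes. Rps28 was at 189.2 and 142.2 CPM in control 1 and 2 and 144.0 and 177.4 CPM in knockdown 1 and 2, with a log2 fold change of -0.04. Rpl23, a large subunit protein that like Rpl5 and Rpl11 binds MDM2, was at 1137 and 1003 CPM against 957.1 and 1095 CPM, with -0.06. The groups overlapped for both. They overlapped as well for Rps26, a protein at the channel where the mRNA leaves, at 1230 and 873.5 CPM against 822.3 and 1010 CPM (log2 fold change -0.20, edgeR adjusted p = 0.679). Rpl41, the smallest ribosomal protein, was at 1279 and 971.6 CPM against 816.2 and 1007 CPM, and its log2 fold change of -0.30 (edgeR adjusted p = 0.482) was close to the median of all members. In both of these genes knockdown 2 lay between the controls and knockdown 1 below them.

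The log2 fold change was above 0 in 3 members, among them Rps27 and Rpl10l. Rps27, on chromosome 3 from 90212667 to 90213648, was at 318 and 336 CPM in control 1 and 2 and 349 and 380 CPM in knockdown 1 and 2, so that both knockdown values were above both controls. The difference was smaller than its error (log2 fold change 0.16, standard error 0.17, edgeR adjusted p = 0.656). Its count is uncertain: 98.4% of its windows occur in other annotated genes, and the coding sequence of the row Rps27rt, at 7.73 to 10.1 CPM, is identical. Rps27l, a paralog that p53 induces, was at 207.5 and 176.3 CPM in control 1 and 2 and 172 and 178 CPM in knockdown 1 and 2 (log2 fold change -0.14, standard error 0.17, edgeR adjusted p = 0.716). The coding sequences of Rps27 and Rps27l are identical at 76.2% of positions.

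Rpl13a, a large subunit protein on chromosome 7 from 45125563 to 45128745 (minus strand), is also known for a part in translational control outside the ribosome. It was at 2365 and 1905 CPM in control 1 and 2 and 1644 and 1771 CPM in knockdown 1 and 2. The groups did not overlap, giving a log2 fold change of -0.32 (standard error 0.20, edgeR adjusted p = 0.426).

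Rpl10l, an intronless paralog of Rpl10 known from male germ cells, was detected in all libraries. It was at 147 and 71.7 CPM in control 1 and 2 and 119 and 140 CPM in knockdown 1 and 2, with control 1 and control 2 on either side of the knockdown libraries. Rpl10 itself, on the X chromosome, was at 1317 and 1114 CPM in control 1 and 2 and 905 and 926 CPM in knockdown 1 and 2 (log2 fold change -0.41, standard error 0.19, edgeR adjusted p = 0.281). No window of Rpl10l is shared with another annotated gene, while 91.6% of those of Rpl10 are. On the X chromosome Rps4x was at 1483 and 1675 CPM in control 1 and 2 and 1353 and 1272 CPM in knockdown 1 and 2. Its autosomal paralog Rps4l was at 410.5 and 268.9 CPM against 326 and 335 CPM, and the groups overlapped.

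The control libraries differed from each other in these genes more than the knockdown libraries did. Of the 81 tested genes 72 were higher in control 1, with a median log2 difference of 0.30, beside -0.0016 over all tested genes. Between the knockdown libraries 64 were higher in knockdown 2, with a median log2 difference of -0.09 (knockdown 1 over 2). The 9 genes higher in control 2 were Rps24, Rps27a, Rpl30, Rpl5, Rps4x, Rpl36a, Rpl7, Rps27 and Rps15a. Over the 81 genes, which share the same libraries, the difference between the controls was larger for transcripts of higher GC content (Spearman's rho 0.51, a description across genes). The log2 fold change did not follow GC content in this way (rho -0.04). In the small subunit control 2 came close to the knockdown libraries. Relative to each gene's mean over the 4 libraries, the small subunit median was 0.272 and -0.0425 in control 1 and 2 and -0.148 and -0.0858 in knockdown 1 and 2.

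**Figure D4:**
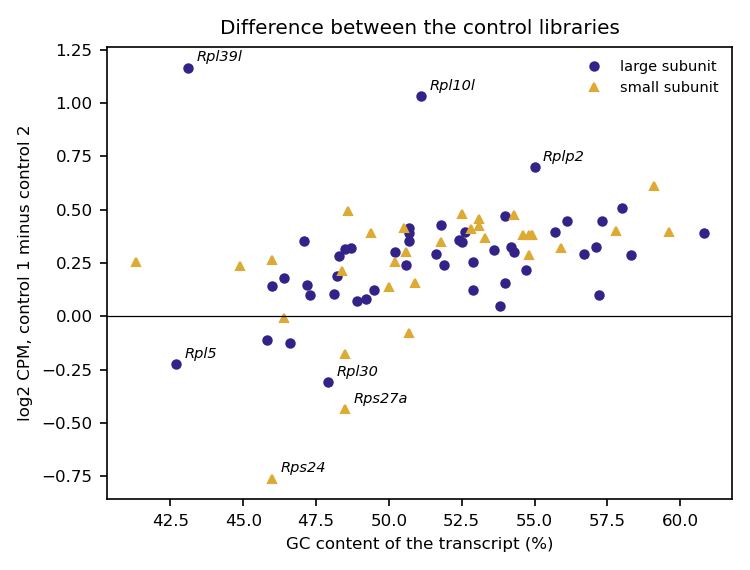
Difference in log2 CPM between control 1 and control 2 (y axis) against the GC content of the transcript in percent (x axis) for 49 large subunit genes (circles) and 32 small subunit genes (triangles). Most of the 81 points lie above 0, and 9 lie below it, with Rps24 the lowest.

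Levels differed widely among the members. Per kilobase of transcript the highest large subunit genes were Rpl23a, Rplp1, Rpl13, Rpl8 and Rpl4, from 2524 to 1876 CPM per kilobase. The highest small subunit genes were Rps12, Rps6, Rps2, Rps14 and Rps15, from 2609 to 1553 CPM per kilobase. At the other end were Rpl39 and Rpl29, with 79.5 and 22.3 CPM per kilobase, and the paralogs Rpl10l, Rpl39l, Rpl3l and Rpl32l, with 117, 68.2, 1.78 and 0.10. Rpl29 was at 18.9 and 17.6 CPM in control 1 and 2 and 13.5 and 13.4 CPM in knockdown 1 and 2, and windows of its transcript occur in 27 other annotated genes. How reads that fit more than 1 place were counted is not given in the labels, so the levels of genes with near copies are uncertain.

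Pseudogenes and other genes with the same sequence could share reads with most members. Of the 82 genes 35 had at least 50% of their windows in another annotated gene of any kind, and 10 had none. For Rpl35 and Rps10, for example, the genes sharing most were Wdr38 and RPS10-NUDT3, whose exons overlap them. Over the 15 tested genes with under 10% of windows shared, the median log2 fold change was -0.25, with 13 below 0, and over the other 66 it was -0.32, with 65 below 0. The 12 rows named as pseudogenes of a ribosomal protein gene were weak. The strongest beside its namesake was Rpl34-ps1, at 4.60% of the level of Rpl34, followed by Rpl17-ps10 at 3.49% of Rpl17. Adding these rows to the sums left the log2 ratios of the subunit sums at -0.36 for the large and -0.26 for the small subunit. Rows this weak could hardly move the sums. The effect of reads shared with pseudogenes that have no row was not tested.

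Promoters of these genes were examined because most members lay on the same side of 0. A window of 250 bases before to 50 after the annotated start was at hand for 61 of the 82 genes, in 73 windows (RefSeq, GRCm38.p6). The heptamer CCGGAAG, the core of sites for ETS factors such as GABPA, was found on either strand in 35.6% of these windows and in 8.86% of all 32851 windows. The pyrimidine-rich hexamers CTTTCC and CTCTTT, which can overlap each other, were searched on both strands too. They were found in 49.3% and 43.8% of the windows, against 26.6% and 23.0% of all windows. CCGGAAG stood in 15 of 45 large subunit and 11 of 28 small subunit windows, CTTTCC in 25 and 11, and CTCTTT in 20 and 12. A match is a description of the letters and no binding site. The shares were set beside those of all windows, whatever the expression of the gene, and not beside those of other abundant genes. A link to the change in the knockdown libraries was not tested.

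The stretches of 30 bases below come from genes among the 8 with the lowest log2 fold change (Rpl39 to Rpl27) and the 8 with the highest (Rpl10l to Rpl23). Each shows the match nearest to the start of the RefSeq transcript, with the motif in capitals, or the bases around the start where the window held no match. They are shown so that the letters at either end of the range can be compared.
Rpl39, chrX:37085182-37085211, minus strand: tctaatcgcgttCTTCCGGtcccggccttt
Rpl38, chr11:114668568-114668597, plus strand: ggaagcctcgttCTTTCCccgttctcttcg
Rpl5, chr5:107900496-107900525, plus strand: ggcctacagccaCTCTTTctcacgtcgctt
Rps24, chr14:24490698-24490727, plus strand: ttggtcggcagtgagcggtcCTCTTTtcct
Rpl6, chr5:121204501-121204530, plus strand: attgcttatagaCCGGAAGccgctgcctta
Rpl27, chr11:101442230-101442259, plus strand: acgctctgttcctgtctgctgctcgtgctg
Rpl10l, chr12:66284466-66284495, minus strand: cggagattgagtGGAAAGgtctatcttcaa
Rps27, chr3:90213630-90213659, minus strand: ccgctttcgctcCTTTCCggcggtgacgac
Rplp2, chr7:141447531-141447560, plus strand: ggaaatgtcttcCTTCCGGtgcaccctttt
Rps19, chr7:24884612-24884641, plus strand: cgcccgggaaaccccgtcgttccCTTTCCc
Rps28, chr17:33824548-33824577, minus strand: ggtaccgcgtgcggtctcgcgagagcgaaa
Rpl23, chr11:97782517-97782546, minus strand: tcttaagcgcagCTTTCCcacgcagaacgg
The window held none of the 3 motifs in Rpl27 at the low end and in Rps28 at the high end. The match lay within the stretch across or just beside the start in Rpl38, Rpl5, Rpl6 and Rps27, further into the transcript in Rpl39, Rps24 and Rps19, and well before the start in Rpl10l, Rplp2 and Rpl23. For Rpl38 and Rpl5 the RefSeq start used here lies inside the span given for the gene above. It is thus that of a single transcript and not the outer end of the gene. CTTCCGG in Rpl39 and Rplp2 is CCGGAAG read on the other strand, as GGAAAG in Rpl10l is CTTTCC.

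Several genes outside the rule encode ribosomal proteins or close relatives. Fau encodes a small subunit protein as a fusion to a ubiquitin-like protein. Fau was at 464 and 331 CPM in control 1 and 2 and 255 and 345 CPM in knockdown 1 and 2. The groups overlapped. Rack1, a scaffold on the small subunit, was at 2377 and 1876 CPM in control 1 and 2 and 1574 and 1570 CPM in knockdown 1 and 2 (log2 fold change -0.44, edgeR adjusted p = 0.29). Rps3a1, a small subunit gene whose symbol falls outside the rule and which was chosen after its values were seen, was at 994 and 1146 CPM against 939.5 and 966.2 CPM. Rpl22l1, the paralog of Rpl22, was at 12.5 and 32.9 CPM in control 1 and 2 and 7.95 and 8.09 CPM in knockdown 1 and 2. The knockdown mean was 2.83-fold lower, which did not pass (standard error 0.44 on the log2 scale, edgeR adjusted p = 0.12). Rpl22l1 passed with DESeq2 (adjusted p = 0.0126), with the edgeR likelihood ratio test (adjusted p = 0.0304) and without a filter (edgeR adjusted p = 0.000329). Its log2 fold change was -2.04 without control 1 and -0.69 without control 2. Rpl22 itself had a log2 fold change of -0.32.

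Of 51 other genes of translation, namely initiation, elongation and termination factors and other mRNAs known for a TOP start, edgeR's quasi-likelihood test called 0 (1.43% of all tested genes were called in either direction). At an unadjusted p of 0.05, 7 were lower and 0 higher, against 8.58% and 11% of all tested genes. DESeq2 called 4, the likelihood ratio test 1 and limma-voom 0, against 6.83%, 8.08% and 1.49% of all tested genes. The log2 fold change was below 0 in 41 of 51, with a median of -0.25, and both knockdown libraries were below both controls in 21, against 24.6% of all tested genes. Eef1a1, the elongation factor that brings aminoacyl-tRNA, was at 19930 and 17460 CPM in control 1 and 2 and 16370 and 17850 CPM in knockdown 1 and 2, and the groups overlapped. Eef2, the translocase, was at 6250 and 4762 CPM against 4210 and 4386 CPM (log2 fold change -0.36, edgeR adjusted p = 0.426). Eif4a1, the helicase that unwinds the mRNA leader, was at 2106 and 2082 CPM against 1936 and 1823 CPM (log2 fold change -0.16, edgeR adjusted p = 0.697). Pabpc1, the cytoplasmic poly(A)-binding protein and a TOP mRNA, was at 2364 and 2506 CPM against 1759 and 1935 CPM (log2 fold change -0.40, edgeR adjusted p = 0.301). Among initiation factors 22 of 31 were below 0 with a median of -0.16, and among the other TOP mRNAs 8 of 9 with a median of -0.38.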

How the data were processed

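The deposited table holds raw counts of reads for each gene in 4 libraries, without normalization. The submitters' processing notes name cutadapt, HISAT2, featureCounts and the build mm10. Tool versions, annotation, strand setting and the handling of multiply placed reads were not given in the sources used here. All 92 spike-in rows held 0 and were left out. In 27 rows a spreadsheet had turned the symbol into a date (0.151% to 0.177% of counts); these stayed in the fit.

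Genes passing filterByExpr of edgeR 4.0.16 (R 4.3.3) were scaled by TMM and tested by quasi-likelihood (design: group alone), with Benjamini-Hochberg adjustment over 16209 genes. Standard errors were derived from the log2 fold change and the root of its F statistic. The procedure was tested on simulated data whose planted changes were larger than that of any member. That test therefore does not bear on changes of the members' size. Alternatives were other scalings, filters and tests (DESeq2 1.42.0, limma 3.58.1), a replicate block, each library left out, equal depth and a length and GC correction. With 1 library left out, the spread came from the other group, which the lone library was taken to share. Depth limits only weak genes such as Rpl3l.

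Lengths, GC and shared windows of 100 bases came from GENCODE M21 (principal isoform), positions from RefSeq GRCm38.p6; both matched all 82 genes. Named genes are any called member, the 8 highest and 8 lowest changes above 5 CPM, the 5 highest levels per kilobase in each subunit, paralogs, genes fixed by their role and, with none called, the 4 translation genes with the highest mean CPM over the 4 libraries. Rpl13a and Rpl29, among others, are described above although none of these rules names them. Members and lists were chosen with earlier results of these data known. Values of some genes that enter the counts and medians are not reported here.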

Additional observations from a re-analysis of the deposited data

How the results depend on the processing

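Rpl39 was called lower in every fit run, and no member was called higher in any. The count of called members was 3 with DESeq2 and 3 without a filter (Rpl38 and Rpl5 added in both), 2 with the edgeR likelihood ratio test (Rpl38 added) and 1 with limma-voom. Without 1 library it ranged from 1 to 2, with Rps24 added without control 1. The count of called translation genes was 4 with DESeq2, 5 without a filter, 1 with the likelihood ratio test and 0 to 2 when 1 library was left out (2 without control 1 and 1 without control 2). Over the fits that left out 1 library, the median log2 fold change of all members ranged from -0.48 to -0.17, that of large subunit genes from -0.53 to -0.25, that of small subunit genes from -0.41 to -0.10, and the difference large minus small from -0.17 to -0.10; the cause was not tested. Under the other scalings the median of all members lay between -0.35 and -0.27. The number of all genes called was 232, and 1717 without a filter, 1310 with the likelihood ratio test, 1107 with DESeq2, and 153 to 587 with 1 library left out. The libraries of the groups share only a replicate number, so the numbers were not taken as pairs and the replicate block was an alternative. The deviations of same-numbered libraries from their group means had r = -0.05 over all tested genes. With so few libraries this cannot exclude a pairing. With the replicate block 1 member and 656 genes in all were called, beside 232 genes without it. The median of all members was then -0.31, and 0 translation genes were called. The restriction to genes with under 10% of windows shared was chosen after seeing the data.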
